A study of Mus musculus with 10 samples.

Results

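Antigen presentation by MHC class I was followed through 10 genes, H2-K1, H2-D1, B2m, Tap1, Tap2, Tapbp, Psmb8, Psmb9, Nlrc5 and Cd74, which were taken by gene symbol from the 50559 genes counted in each of 10 mouse RNA libraries. Each symbol was found once in every library, and all 10 genes passed the filter on low counts that 29952 genes passed. The libraries came from formalin-fixed, paraffin-embedded tissue (FFPE) of 4 MYC/SMARCA4 tumors, 3 P7 whole cerebella and 3 medulloblastomas of a sonic hedgehog model (SHH MB). Punches are named for the tumors only, so sampling may differ between groups. The tumors started from granule cell precursors (GCPs) of Math1-creERT2::Smarca4fl/fl pups on a C57Bl6/J background, which had received 0.4 mg tamoxifen at P3. These cells were given a lentiviral murine Myc construct with GFP and were placed, without sorting, in the cerebella of CD1nu/nu hosts at an age of 6 weeks. Tumors 1, 2, 3 and 4 are labelled with ages of 112, 96, 89 and 79 days. The P7 cerebella had the same Math1-creERT2::Smarca4fl/fl genotype, had been given tamoxifen at the same dose and day, and were 7 days old. In them the Cre acts in Math1-positive cells only, so that a whole cerebellum is a mixture of recombined and other cells. The SHH MB arose in Math1-cre::Smofl/wt mice without transplantation, with an age of 7 days in the labels and no strain given. Nude hosts lack mature T cells but keep B cells, NK cells, microglia and other myeloid cells. Age, host stock, transplantation and group go together in this design and cannot be told apart.

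Reads counted on genes came to 6547245, 6945005, 5663491 and 9352109 in MYC/SMARCA4 tumors 1 to 4, 8958307, 8139778 and 5933515 in P7 cerebella 1 to 3, and 5930961, 7933586 and 7031248 in SHH MB 1 to 3. Levels are given as CPM, counts scaled to a common library size after TMM normalization, and differences as fitted log2 fold changes of edgeR. The TMM factors were 0.619, 0.802, 1.28 and 0.881 in the tumors, and between 1.01 and 1.20 in the other 6 libraries. A floor of 3 counts equals 0.307 to 0.744 CPM, depending on the library. It is not stated whether molecular identifiers were used to collapse reads, so intervals and floors cover counting error only.

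MHC class I molecules show peptides from inside the cell to CD8 T cells, and their absence from the surface is read by NK cells. The proteasome, or its interferon-induced form with Psmb8 and Psmb9, cuts proteins into peptides, Tap1 and Tap2 carry these into the endoplasmic reticulum, tapasin (Tapbp) holds empty class I molecules at the transporter, and a heavy chain (H2-K1 or H2-D1) leaves for the surface together with B2m. Nlrc5 switches on class I genes, and Cd74 is the invariant chain of MHC class II, made by microglia, macrophages, dendritic cells and B cells. Neurons and their precursors are known for low class I levels in the healthy brain.

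In GENCODE on GRCm39, 7 of the 10 genes lie on chromosome 17. They are Tapbp at chr17:34134873-34148267, H2-K1 at chr17:34214987-34219321, Psmb9 at chr17:34400960-34406738, Tap1 at chr17:34405996-34416199, Psmb8 at chr17:34416690-34420428, Tap2 at chr17:34422501-34435829 and H2-D1 at chr17:35481691-35486475. B2m lies on chromosome 2 and Nlrc5 on chromosome 8. Tap1 and Psmb9 overlap on opposite strands, and H2-K1, H2-D1, Tapbp, Psmb8, Tap2 and Nlrc5 each overlap a gene of the opposite strand. The strand used for counting is not stated, so reads of such pairs could not be told apart. The heavy chains resemble each other and the nonclassical class I genes. Of all windows of 75 bases in the exons of H2-K1, 7.68% also occur elsewhere in the genome, against 7.73% for H2-D1, 0.88% for Tapbp and 0 for the other 7 genes. How reads with several positions were counted is not stated, and the counts of both heavy chains are uncertain in this respect. The heavy chains are also among the most variable genes between mouse stocks, and the reference carries the C57BL/6 haplotype, while the hosts were of another stock. Transcripts of donor and host cells were counted together.

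Promoters from RefSeq, 250 bases before to 50 after a start, were available for 7 genes, and all 8 of their sequences (table on GRCm38.p6) had a single position on GRCm39. Those of the called genes H2-K1, H2-D1 and B2m are shown because these 3 genes form the class I molecule itself. Capitals mark matches, on either strand, to GAAANNGAA (core of an interferon-stimulated response element), TTCNNNGAA (STAT), GGGNNTTCC (NF-kappaB-like), CCAAT and CACGTG (E-box). The windows are chr17:34219272-34219571 on the minus strand for H2-K1, chr17:35481820-35482119 on the plus strand for H2-D1, and chr2:121977918-121978217 on the plus strand for B2m.
H2-K1: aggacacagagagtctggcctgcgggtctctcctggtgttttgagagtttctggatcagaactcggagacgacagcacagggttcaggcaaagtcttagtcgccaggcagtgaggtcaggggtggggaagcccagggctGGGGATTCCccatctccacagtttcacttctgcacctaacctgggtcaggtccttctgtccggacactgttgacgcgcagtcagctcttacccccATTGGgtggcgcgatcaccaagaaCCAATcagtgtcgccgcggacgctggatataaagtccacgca
H2-D1: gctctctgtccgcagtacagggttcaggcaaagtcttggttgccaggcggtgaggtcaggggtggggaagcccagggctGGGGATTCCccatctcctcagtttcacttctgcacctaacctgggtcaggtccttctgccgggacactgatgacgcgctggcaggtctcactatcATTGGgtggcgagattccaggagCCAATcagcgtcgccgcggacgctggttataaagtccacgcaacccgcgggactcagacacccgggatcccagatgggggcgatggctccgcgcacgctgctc
B2m: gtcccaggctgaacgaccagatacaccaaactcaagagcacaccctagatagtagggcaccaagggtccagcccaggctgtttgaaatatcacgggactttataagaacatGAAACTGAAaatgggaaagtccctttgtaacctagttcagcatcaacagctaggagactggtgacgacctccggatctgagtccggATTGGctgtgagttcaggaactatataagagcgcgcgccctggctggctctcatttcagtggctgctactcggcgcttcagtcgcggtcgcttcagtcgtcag
The promoters of H2-K1 and H2-D1 shared an unbroken run of 47 bases, at positions -141 to -95 and -201 to -155 from the start, and both runs held the single NF-kappaB-like match of the promoter. Each of them also had a CCAAT match on either strand. H2-K1 has a further start 14 bases downstream, with the same matches. B2m had the GAAANNGAA match at positions -139 to -131 and a CCAAT match on the minus strand. Only this spelling of the interferon element was searched, so a promoter without a match may hold another form. The letters tttcacttc, which the search does not cover, stand downstream of the NF-kappaB-like match in both H2-K1 and H2-D1. Tap1, Psmb9 and Tapbp had CCAAT matches only, and the windows of Tap1 and Psmb9 share 275 bases, since they start in opposite directions. Psmb8 had a STAT match, which reads the same on both strands. No match overlapped a match of another motif. Among 32851 promoters of this length, 8.56% held the GAAANNGAA letters, 8.30% the STAT letters and 5.82% the NF-kappaB-like letters. CCAAT was found in 37.4%, and the E-box, which none of the 8 promoters held, in 7.15%.

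The tumors were compared with P7 cerebella, the tissue that holds their cells of origin, and with SHH MB, the established medulloblastoma model, and both comparisons use the same 4 tumors. Against P7 cerebella, 3 of the 10 genes rose in the tumors (H2-K1, B2m and Cd74) at an adjusted p of at most 0.05 in edgeR, where 6.25% of all genes were called and 3.99% were called higher. Against SHH MB, 3 of 10 rose (H2-K1, H2-D1 and Cd74), with 4.68% of all genes called and 2.43% called higher. No gene fell in either comparison. In each comparison the other 7 genes were not called. At an unadjusted p under 0.05 were 4 and 5 of the 10 genes, beside 25.2% and 19.8% of all genes, and DESeq2 called 15.4% and 10.5% of all genes and limma 2.43% and 1.90%. Such counts for other lists below are to be read against these shares. A gene named as most abundant in a list, or leading it, had the highest CPM per kilobase of exon, averaged over libraries. The median log2 fold change of the 10 genes was 0.41 against P7 cerebella and 0.84 against SHH MB, where that of all genes was -0.051 and 0.0082. In 4 genes (H2-K1, B2m, Tapbp and Cd74) every tumor lay above every P7 cerebellum, and the same 4 lay above every SHH MB, while the groups did not overlap for 21% and 16.1% of all genes. With the thresholds of the study (log2 fold change of at least 2.5, adjusted p of at most 0.01), H2-K1 was called in both comparisons with edgeR, as 0.29% and 0.601% of all genes were. With limma, the tool of the study, its log2 fold changes of 2.25 and 2.108 lay under that threshold. In bulk tissue, more cells of a type and more RNA per cell cannot be told apart.

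**Figure D1:**
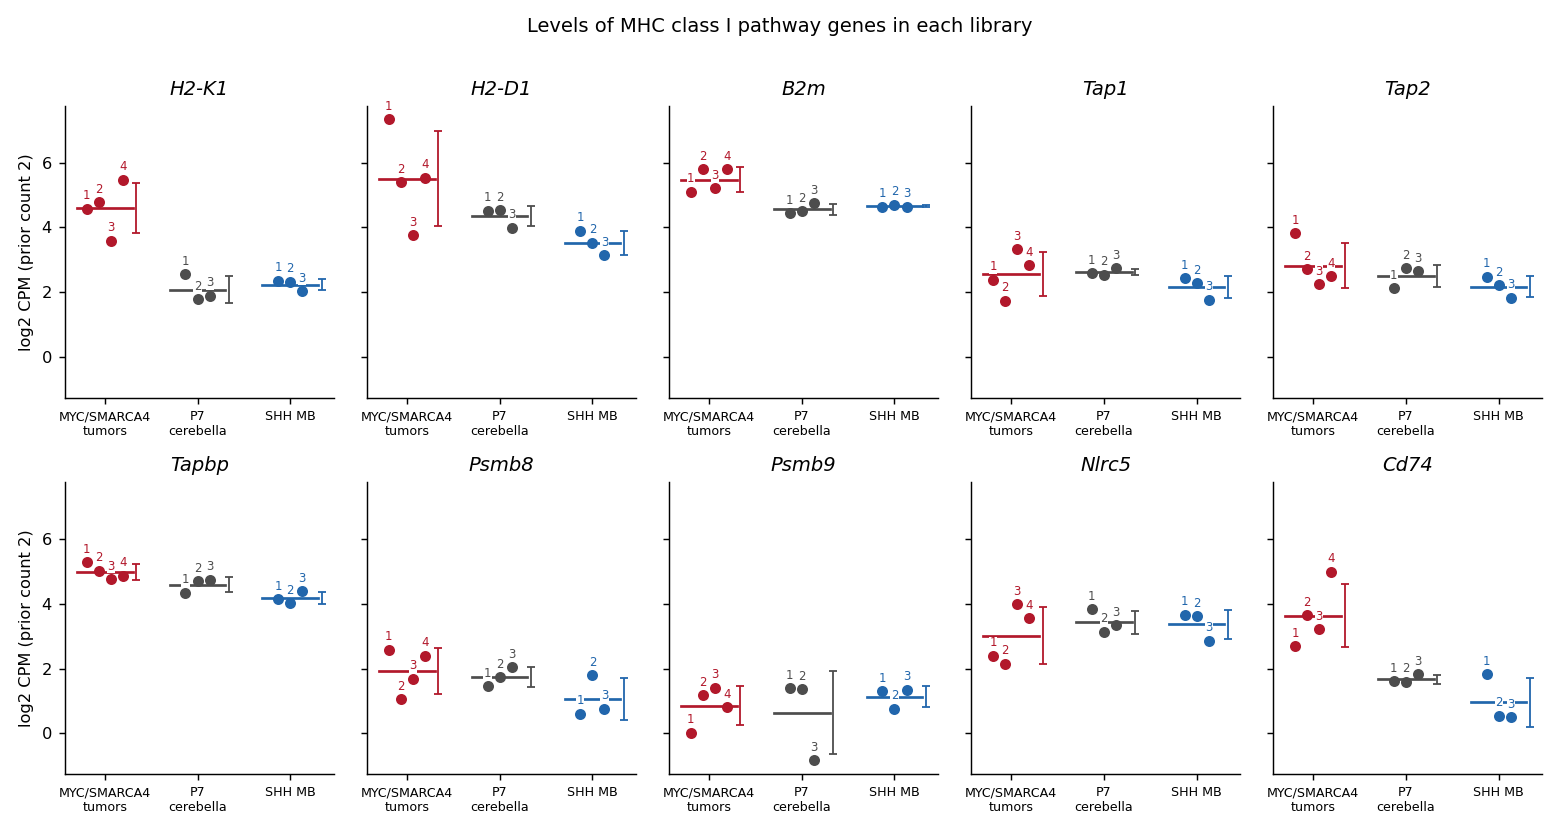
Log2 CPM (prior count 2) of the 10 genes in every library. Dots are libraries with their replicate number, lines are group means and bars are 1 SD; H2-K1 had means of 4.60 in MYC/SMARCA4 tumors, 2.08 in P7 cerebella and 2.24 in SHH MB.

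H2-K1 encodes the K heavy chain. Its counts were 95, 151, 84 and 363 in MYC/SMARCA4 tumors 1 to 4, 55, 29 and 24 in P7 cerebella 1 to 3, and 31, 40 and 27 in SHH MB 1 to 3. In CPM, these were 23.5, 27.2, 11.8 and 44.3 in MYC/SMARCA4 tumors 1 to 4, 5.62, 3.17 and 3.42 in P7 cerebella 1 to 3 and 4.82, 4.71 and 3.83 in SHH MB 1 to 3. All 4 tumors lay above all 6 other libraries, with tumor 4 highest and tumor 3 lowest among them. Mean levels were 26.7 ± 13.4 CPM (SD, n = 4) in the tumors, and 4.07 ± 1.35 in P7 cerebella and 4.46 ± 0.541 in SHH MB (n = 3 each). The log2 fold change against P7 cerebella was 2.705 (SE 0.41), which is 6.52-fold, with an adjusted p of 0.00666 by edgeR. Against SHH MB it was 2.58 (SE 0.41), or 5.98-fold, with an adjusted p of 0.00592. Two-sided exact permutation tests of log2 CPM gave p = 0.0286 against P7 cerebella, the smallest value that the 35 divisions of 4 and 3 libraries allow, and p = 0.0571 against SHH MB. The call against P7 cerebella was lost in 2 of 19 alternatives, without P7 cerebellum 2 (log2 fold change 2.57, adjusted p 0.0697) and without P7 cerebellum 3 (log2 fold change 2.51, adjusted p 0.0576), and against SHH MB in 1 of 19, without SHH MB 3 (log2 fold change 2.48, adjusted p 0.0557). Over these alternatives the log2 fold change ranged from 2.25 to 3.03 against P7 cerebella and from 2.108 to 2.69 against SHH MB, and the adjusted p from 0.000000296 to 0.0697 and from 0.00000139 to 0.0557.

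H2-D1 encodes the D heavy chain. It was counted 651, 231, 95 and 378 times in MYC/SMARCA4 tumors 1 to 4, 221, 210 and 109 times in P7 cerebella 1 to 3 and 94, 96 and 60 times in SHH MB 1 to 3. The levels were 161, 41.6, 13.3 and 46.1 CPM in the tumors, 22.6, 22.9 and 15.6 in the P7 cerebella and 14.6, 11.3 and 8.52 in the SHH MB. Tumor 1 stood far above all other libraries, tumors 2 and 4 lay above both other groups, and tumor 3 lay within their range, so that the groups overlapped. The tumors averaged 65.6 ± 65.5 CPM (SD, n = 4), an SD about as large as the mean, beside 20.4 ± 4.16 (n = 3) and 11.5 ± 3.05 (n = 3). Against SHH MB, H2-D1 rose with a log2 fold change of 2.51 (SE 0.60, 5.68-fold, adjusted p 0.0453 by edgeR), and the exact permutation test gave p = 0.0857. Without tumor 1 it was 1.54 with an adjusted p of 0.0274. This call was made in 8 of 19 alternatives, with adjusted p between 0.00165 and 0.221. Leaving out a library ended it with adjusted p of 0.0588 without MYC/SMARCA4 tumor 2, 0.0526 without MYC/SMARCA4 tumor 4, 0.0739 without P7 cerebellum 1, 0.0762 without P7 cerebellum 2, 0.0696 without P7 cerebellum 3, 0.154 without SHH MB 1, 0.183 without SHH MB 2 and 0.221 without SHH MB 3. Against P7 cerebella the log2 fold change was 1.68 (SE 0.59, adjusted p 0.119 by edgeR, exact permutation p = 0.257), which did not pass the threshold. There it was 0.74 without tumor 1, and it was called without tumor 3 (adjusted p 0.0117, in a fit that called 34.6% of all genes) and by DESeq2 (adjusted p 0.0430), within a range from 0.0117 to 0.372.

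The balance of the heavy chains also varied between tumors. H2-K1 made up 12.7, 39.5, 46.9 and 49.0% of the counts of both heavy chains in tumors 1 to 4, 19.9, 12.1 and 18% in P7 cerebella 1 to 3 and 24.8, 29.4 and 31% in SHH MB 1 to 3. The exact (Clopper-Pearson) 95% intervals ran from 10.4 to 15.3% in tumor 1 and from 34.6 to 54.5% over tumors 2 to 4. In the other libraries they covered 8.28 to 41.9%. Tumors 2, 3 and 4 had higher H2-K1 shares than all 6 other libraries, and tumor 1 had the smallest share apart from P7 cerebellum 2. The shares rest on counts with the limits on position and haplotype given for the heavy chains, and no test was made on them. For 100 counts of B2m there were 545, 124, 68.3 and 163 counts of both heavy chains in the tumors, 132, 117 and 71.5 in the P7 cerebella and 79.1, 62.1 and 50 in the SHH MB. Tumors 1 and 4 were above every P7 cerebellum in this ratio, tumor 2 lay between P7 cerebella 1 and 2, and tumor 3 lay below all P7 cerebella.

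**Figure D2:**
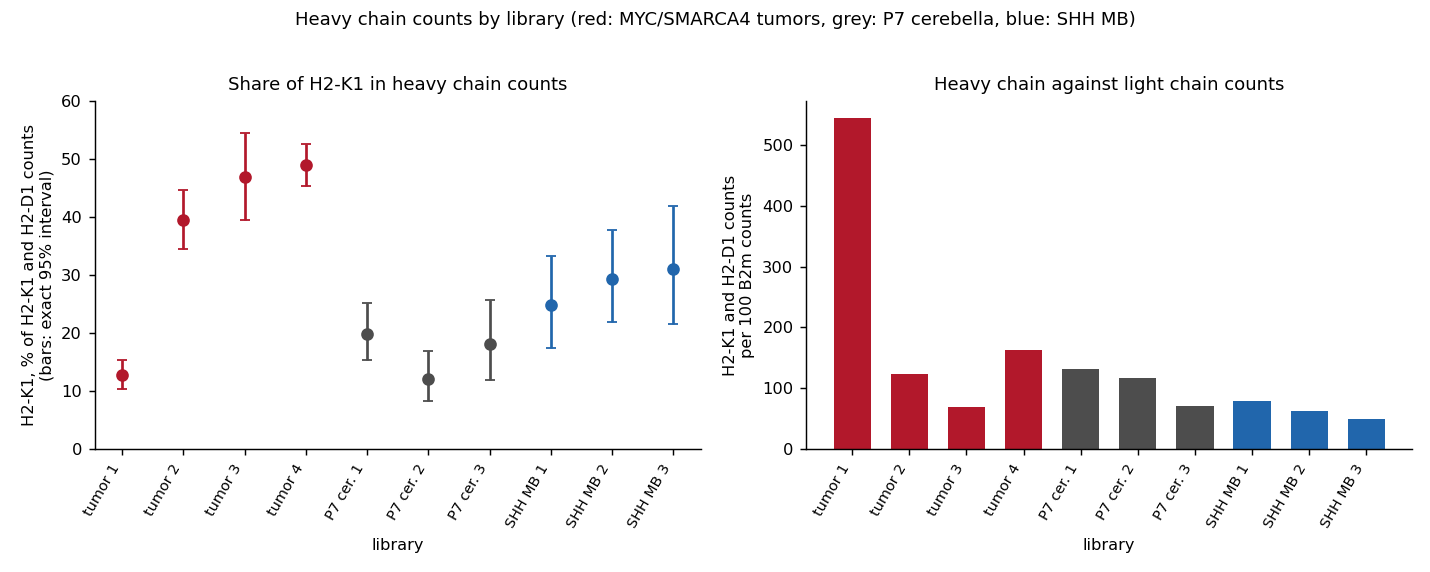
Left, H2-K1 counts as a percent of the counts of H2-K1 and H2-D1 in each library, with exact 95% intervals; right, counts of H2-K1 and H2-D1 per 100 counts of B2m. Dots are libraries by group, and tumor 1 had 12.7% H2-K1 and 545 heavy chain counts per 100 B2m counts.

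B2m is the light chain that every class I heavy chain needs at the surface. It was counted 137, 308, 262 and 454 times in tumors 1 to 4, 209, 204 and 186 times in P7 cerebella 1 to 3 and 158, 219 and 174 times in SHH MB 1 to 3. This gave 34, 55.4, 36.7 and 55.4 in MYC/SMARCA4 tumors 1 to 4, 21.4, 22.3 and 26.5 in P7 cerebella 1 to 3 and 24.6, 25.8 and 24.7 in SHH MB 1 to 3, all in CPM. Tumors 2 and 4 were the highest, tumors 1 and 3 followed, and the other groups lay close together below them. The means were 45.4 ± 11.7 CPM (SD, n = 4), 23.4 ± 2.77 (n = 3) and 25.0 ± 0.672 (n = 3). B2m rose against P7 cerebella with a log2 fold change of 0.96 (SE 0.25, 1.94-fold, adjusted p 0.0476 by edgeR, exact permutation p = 0.0286). Against SHH MB the log2 fold change was 0.86 (SE 0.25, 1.81-fold, adjusted p 0.0817 by edgeR, exact permutation p = 0.0571), past the threshold without tumor 1 (adjusted p 0.0147), without tumor 3 (adjusted p 0.0477) and by DESeq2 (adjusted p 0.0205), within a range from 0.0147 to 0.341. The call against P7 cerebella was made in 6 of 19 alternatives, with log2 fold changes between 0.69 and 1.08 and adjusted p between 0.00503 and 0.221. With 1 library left out it was not made, at adjusted p of 0.109 without MYC/SMARCA4 tumor 2, 0.155 without MYC/SMARCA4 tumor 4, 0.191 without P7 cerebellum 1, 0.221 without P7 cerebellum 2, 0.192 without P7 cerebellum 3, 0.0956 without SHH MB 1, 0.0967 without SHH MB 2 and 0.0939 without SHH MB 3.

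Tapasin (Tapbp) bridges the heavy chain and the peptide transporter. Its levels were 38.7, 32.0, 26.6 and 28.8 in MYC/SMARCA4 tumors 1 to 4, 19.9, 25.5 and 26.4 in P7 cerebella 1 to 3 and 17.3, 15.8 and 20.6 in SHH MB 1 to 3, in CPM. Every tumor lay above the highest library of the other groups, tumor 3 by the least. The mean was 31.5 ± 5.27 CPM (SD, n = 4) in the tumors beside 24 ± 3.52 (n = 3) and 17.9 ± 2.46 (n = 3). The log2 fold change was 0.39 (SE 0.25, adjusted p 0.319 by edgeR, exact permutation p = 0.0571) against P7 cerebella and 0.82 (SE 0.25, adjusted p 0.0877 by edgeR, exact permutation p = 0.0286) against SHH MB, and neither passed the threshold. DESeq2 (adjusted p 0.0236) and the fit without tumor 3 (adjusted p 0.0397) called Tapbp against SHH MB, within a range over alternatives from 0.0236 to 0.364.

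The transporter subunits had low counts, between 17 and 70 for Tap1 and between 23 and 59 for Tap2. Tap1 was at 4.96, 3.06, 9.79 and 6.83 in MYC/SMARCA4 tumors 1 to 4, 5.72, 5.57 and 6.42 in P7 cerebella 1 to 3 and 5.13, 4.60 and 3.12 in SHH MB 1 to 3, in CPM. Tumor 3 was highest and tumor 2 lowest of all 10 libraries, and the groups overlapped. Tap2 was at 13.9, 6.30, 4.48 and 5.37 in MYC/SMARCA4 tumors 1 to 4, 4.09, 6.44 and 5.99 in P7 cerebella 1 to 3 and 5.29, 4.36 and 3.27 in SHH MB 1 to 3. Tumor 1 stood above the rest, and the other tumors lay among the other groups. For Tap1 the log2 fold change was 0.074 (SE 0.41) against P7 cerebella and 0.53 (SE 0.41) against SHH MB, with adjusted p of 0.916 and 0.515 by edgeR. Those of Tap2 were 0.43 (SE 0.43) and 0.78 (SE 0.44), with adjusted p of 0.527 and 0.355. The sign against P7 cerebella turned for Tap1 without tumor 3, to -0.41, and for Tap2 without tumor 1, to -0.024. No difference between the tumors and another group was detectable for either subunit at this depth.

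Psmb8 and Psmb9 are the interferon-induced catalytic subunits of the immunoproteasome, and they had the fewest counts of the 10 genes. Psmb8 had 23, 10, 21 and 41 counts in the tumors, 24, 28 and 27 in the P7 cerebella and 8, 27 and 10 in the SHH MB. Psmb9 had 3, 11, 17 and 12, 23, 21 and 2 and 14, 12 and 16 counts, so that tumor 1 and P7 cerebellum 3 were at or under the floor of 3 counts. In both genes the groups overlapped in each comparison. The log2 fold change of Psmb8 was 0.30 (SE 0.51, adjusted p 0.710 by edgeR) against P7 cerebella and 0.96 (SE 0.53, adjusted p 0.346) against SHH MB. That of Psmb9 was -0.00057 (SE 0.66, adjusted p 1.000) and -0.22 (SE 0.66, adjusted p 0.882). No difference between groups was detectable for either gene at this depth.

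Nlrc5, the transcriptional activator of class I genes, was at 4.96, 4.14, 15.5 and 11.5 in MYC/SMARCA4 tumors 1 to 4, 13.9, 8.52 and 9.84 in P7 cerebella 1 to 3 and 12.3, 11.9 and 6.96 in SHH MB 1 to 3, in CPM. Tumors 1 and 2 were the lowest of all libraries and tumor 3 was the highest, so that the 4 tumors spanned the other 6 libraries. The log2 fold change was -0.24 (SE 0.45, adjusted p 0.741 by edgeR) against P7 cerebella and -0.19 (SE 0.45, adjusted p 0.853) against SHH MB. Without tumor 3 these were -0.78 and -0.72, and without tumor 2 they were 0.0054 and 0.056. Nlrc5 was called in neither comparison, and its part in the levels of the class I genes was not tested.

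Cd74 is the invariant chain that guards the peptide groove of MHC class II, and it lies on chromosome 18, away from the other 9 genes. Its counts were 25, 68, 64 and 256 in tumors 1 to 4, 27, 25 and 23 in P7 cerebella 1 to 3 and 21, 10 and 8 in SHH MB 1 to 3. The levels were 6.20, 12.2, 8.95 and 31.2 in MYC/SMARCA4 tumors 1 to 4, 2.76, 2.73 and 3.28 in P7 cerebella 1 to 3 and 3.27, 1.18 and 1.14 in SHH MB 1 to 3, in CPM. Tumor 4 was far above the other tumors, and the lowest tumor, tumor 1, still lay above all 6 other libraries. Means were 14.7 ± 11.3 CPM (SD, n = 4), 2.92 ± 0.311 (n = 3) and 1.86 ± 1.22 (n = 3). Cd74 rose against P7 cerebella with a log2 fold change of 2.33 (SE 0.55, 5.04-fold, adjusted p 0.0346 by edgeR, exact permutation p = 0.0571), and against SHH MB with 3.00 (SE 0.57, 7.99-fold, adjusted p 0.0161 by edgeR, exact permutation p = 0.0286). The first call was made in 8 of 18 alternatives (adjusted p from 0.00121 to 0.163) and the second in 14 of 18 (adjusted p from 0.0000329 to 0.114). Against P7 cerebella the adjusted p was 0.0531 without MYC/SMARCA4 tumor 2, 0.123 without MYC/SMARCA4 tumor 4, 0.137 without P7 cerebellum 1, 0.162 without P7 cerebellum 2, 0.163 without P7 cerebellum 3, 0.0557 without SHH MB 2 and 0.0542 without SHH MB 3. Against SHH MB it was 0.108 without SHH MB 2 and 0.114 without SHH MB 3. Without tumor 4 the log2 fold changes were 1.61 and 2.28.

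**Figure D3:**
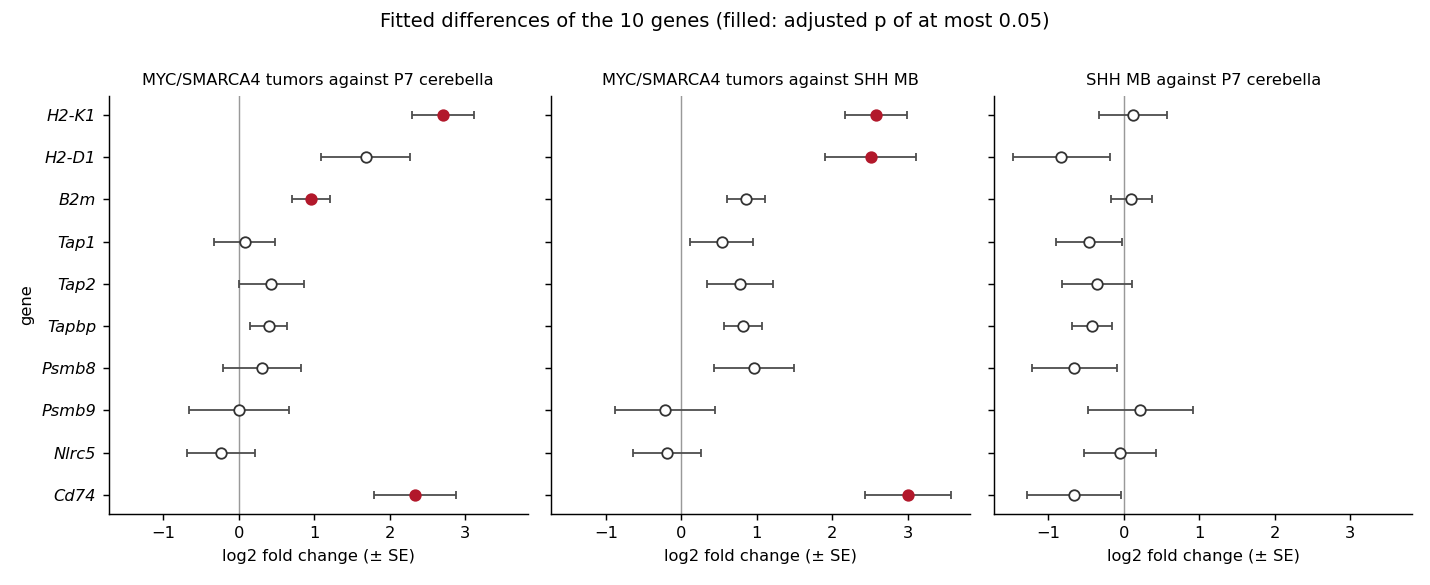
Log2 fold change of each gene with its SE as a bar, in a panel for each of the 3 comparisons. Filled points have an adjusted p of at most 0.05 by edgeR, which holds for H2-K1, B2m and Cd74 against P7 cerebella, and for H2-K1, H2-D1 and Cd74 against SHH MB.

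The class II chains and loading genes beside Cd74 were not called in either comparison of the tumors. Of 11 such genes, 10 were tested, and edgeR called 0 against either group, with 3 and 3 at an unadjusted p under 0.05, about the shares of all genes (25.2% and 19.8%), while DESeq2 called 1 and 2 and limma 0. Their median log2 fold change was -0.072 against P7 cerebella and 0.16 against SHH MB, and 4 and 5 of 10 were fitted higher. The median against P7 cerebella turned to 0.071 without tumor 2, and that against SHH MB to -0.14 with limma and to -0.20 without tumor 4. H2-DMa, which helps to load class II and was the most abundant of them, was at 32.7, 17.8, 17.5 and 17.1 in MYC/SMARCA4 tumors 1 to 4, 20.3, 18.9 and 25.7 in P7 cerebella 1 to 3 and 24.1, 24 and 30.8 in SHH MB 1 to 3, in CPM. The class II chains H2-Aa and H2-Ab1, which pair with Cd74, were picked with their values known. H2-Aa had 8, 17, 24 and 86 counts in the tumors, 15, 13 and 17 in P7 cerebella and 12, 7 and 9 in SHH MB, and H2-Ab1 had 22, 22, 21 and 72, 13, 24 and 13 and 18, 23 and 2. As for Cd74, tumor 4 had the most counts of both. Their log2 fold changes were 1.43 and 1.45 against P7 cerebella (adjusted p 0.167 and 0.182 by edgeR), and 1.86 and 1.45 against SHH MB (adjusted p 0.118 and 0.237). The other class II chains tested had lower values against P7 cerebella and SHH MB, of 0.64 and 0.39 for H2-Eb1, -1.17 and -0.80 for H2-Eb2, -0.12 and 0.48 for H2-Oa and -1.44 and -0.50 for H2-Ob (adjusted p from 0.240 to 0.934).

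Between SHH MB and P7 cerebella, edgeR called 0 of the 10 genes and 0.224% of all genes. At an unadjusted p under 0.05 there were 0, beside 8.80% of all genes, and DESeq2 and limma also called 0. The median log2 fold change was -0.39, beside -0.088 for all genes. H2-D1 and Tap1 lay lower in every SHH MB than in every P7 cerebellum, as 36.8% of all genes lay apart in either direction, with log2 fold changes of -0.83 (SE 0.64) and -0.46 (SE 0.44). Their exact permutation p was 0.1, the smallest that the 20 divisions of 3 and 3 libraries allow. In a fit of these 2 groups alone, which called 6883 genes, H2-D1 was called lower with an adjusted p of 0.00452, where the range over 19 alternatives reached 1.000.

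Per kilobase of exon, the level of H2-D1 in the tumors was 21.9 ± 21.9 CPM (SD, n = 4) and that of B2m 21.5 ± 5.53. H2-K1 followed with 8.38 ± 4.22, Tapbp with 7.15 ± 1.19 and Cd74 with 5.83 ± 4.50. Tap2, Psmb8, Nlrc5, Tap1 and Psmb9 had means from 1.57 down to 0.432. Only B2m and H2-K1 were neighbors in this order that differed by more than the sum of their SDs. In P7 cerebella, B2m came first with 11.1 ± 1.31 CPM per kilobase (n = 3), ahead of H2-D1 with 6.80 ± 1.39 and Tapbp with 5.43 ± 0.798, and the other 7 genes lay between 1.28 (H2-K1) and 0.432 (Psmb9). In SHH MB, B2m had 11.9 ± 0.319 CPM per kilobase (n = 3), Tapbp 4.06 ± 0.558 and H2-D1 3.84 ± 1.02, and the other 7 genes lay between 1.40 (H2-K1) and 0.514 (Psmb9). Neighbors apart by more than their summed SDs were B2m and H2-D1, and Tapbp and H2-K1, in P7 cerebella, and B2m and Tapbp, and H2-D1 and H2-K1, in SHH MB. H2-K1 thus stood with the low genes in both groups of 7-day-old tissue, and near Tapbp in the tumors.

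**Figure D4:**
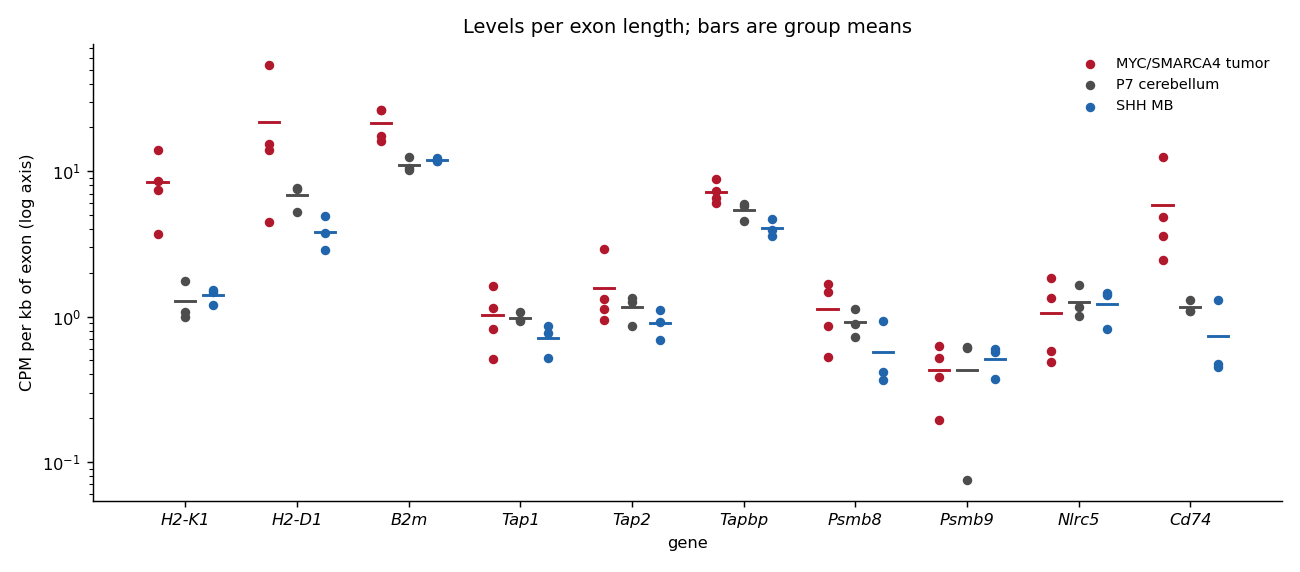
Level of each gene in CPM per kilobase of exon on a log axis, by group. Dots are libraries and bars are group means; B2m had 21.5, 11.1 and 11.9 CPM per kilobase in MYC/SMARCA4 tumors, P7 cerebella and SHH MB.

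The 10 genes together took 294, 186, 132 and 236 CPM in tumors 1 to 4, 101, 103 and 102 in P7 cerebella 1 to 3 and 90.7, 84.2 and 75.8 in SHH MB 1 to 3. Tumor 1, with its high H2-D1, had the largest sum, and tumor 3 the smallest of the tumors. Centred on the mean of the 10 libraries, their mean log2 CPM was 0.60, 0.32, 0.29 and 0.85 in the tumors, -0.14, -0.16 and -0.31 in P7 cerebella and -0.29, -0.45 and -0.70 in SHH MB. By this mean, in which every gene counts alike, tumor 4 was highest. Over the 10 libraries, the pairs with the smallest root mean square difference in centred log2 CPM were Tap2 and Tapbp (0.35), B2m and Tapbp (0.38) and Tap1 and Nlrc5 (0.40), and the largest differences were those of H2-K1 and H2-D1 from Nlrc5 (1.58 and 1.57). Outside the 10 genes, the genes nearest to their mean by the same measure were Josd1, Mtg1, Atp5d, Txnrd2, Mtx1, Urm1, Zc3hc1, Dbr1, Cdk9 and Man2b1, at 0.13 to 0.18. The nearest tested gene to each was LOC115488690 for H2-K1, Pitpnm3 for H2-D1, Tmem109 for B2m, Nkpd1 for Tap1, Gm39887 for Tap2, Mast3 for Tapbp, Gm4335 for Psmb8, Fndc8 for Psmb9, Gm18580 for Nlrc5 and Gcat for Cd74. These distances ran from 0.11 for B2m to 0.44 for Cd74. All describe 10 libraries in 3 groups.

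Other genes that supply peptides or load class I showed few calls. Of 12 such genes, edgeR called 0 against P7 cerebella, with 6 at an unadjusted p under 0.05, 3 called by DESeq2 and 0 by limma. Against SHH MB it called 1, the peptidase Lnpep, which acts in cross-presentation (log2 fold change 1.32, SE 0.33, adjusted p 0.0456, called in 6 of 19 alternatives). Their median log2 fold change was 0.53 and 0.40. The chaperone Calr, which holds newly made heavy chains, was the most abundant per length and had 139, 353, 179 and 252 in MYC/SMARCA4 tumors 1 to 4, 214, 216 and 204 in P7 cerebella 1 to 3 and 194, 190.1 and 200.1 in SHH MB 1 to 3, in CPM. Of 13 genes of the constitutive proteasome and its caps, 2 rose against P7 cerebella by edgeR. They were the proteasome activator Psme3 with 1.08 (SE 0.26, adjusted p 0.0329, 7 of 19 alternatives) and the ATPase Psmc1 with 1.06 (SE 0.24, adjusted p 0.0271, 8 of 19 alternatives). There 7 of 13 were at an unadjusted p under 0.05 (25.2% of all genes), DESeq2 called 6 (15.4% of all genes) and limma 0. None was called with replicate numbers as a block or in a fit of the compared groups alone. Against SHH MB edgeR called 0 of 13, with 8 at an unadjusted p under 0.05 (19.8% of all genes), 5 called by DESeq2 (10.5% of all genes) and 0 by limma. Without tumor 3, 5 of 13 were called higher in each comparison, in fits that called 11.8% and 9.57% of all genes higher. All 13 had a fitted value above 0 against SHH MB, and the median was 0.52 against P7 cerebella and 0.63 against SHH MB. Psme3 was also their most abundant gene.

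Nonclassical and class I-like heavy chains gave no call of higher expression. Of 16 such genes, 14 were tested, and edgeR called 0 against P7 cerebella (1 at an unadjusted p under 0.05, 0 by DESeq2 and 0 by limma). Mr1, which presents vitamin metabolites, fell against SHH MB with a log2 fold change of -1.66 (SE 0.39, adjusted p 0.0286 by edgeR, called in 12 of 19 alternatives). The medians of the list were -0.29 and 0.17. The first turned to 0.014 without P7 cerebellum 2. The second turned to -0.32 without tumor 3, where 3 were called lower. That fit called 23.4% of all genes in either direction, and 9.57% higher. H2-T24 was the most abundant of them, with 17.1, 8.82, 12.7 and 14.4 CPM in the tumors, 12, 22.4 and 15.4 in P7 cerebella and 30.6, 23.9 and 31.1 in SHH MB. H2-Q6 and H2-Q7 had 0 counts in all 4 tumors and in 8 of 10 libraries each, and they were not tested. They resemble each other closely, and since the handling of reads with several positions is not stated, these zeros set no bound on their expression.

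Transcription factors of class I genes and the interferon receptors with their signaling counted 24 genes. Against P7 cerebella edgeR called 0 of them, with 3 at an unadjusted p under 0.05, 1 called by DESeq2 and 0 by limma. Rfxap, a subunit of the RFX complex that binds class I and class II promoters, was the most abundant of the list per kilobase of exon. It rose against SHH MB by 1.19 (SE 0.27, adjusted p 0.0286 by edgeR, 10 of 19 alternatives). The medians of the list were 0.25 and 0.21, and turned to -0.054 and -0.019 with at least 10 counts in every library (23 genes tested).

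Of 32 interferon-stimulated genes, edgeR called 0 against P7 cerebella, with 1 at an unadjusted p under 0.05 and 0 called by DESeq2 and by limma. Against SHH MB it called 1, Ifit2, which fell. Ifit2, a protein that binds foreign RNA, had 13.1, 6.30, 4.62 and 8.78 in MYC/SMARCA4 tumors 1 to 4, 15.3, 12.8 and 11.4 in P7 cerebella 1 to 3 and 23.3, 24.5 and 26.6 in SHH MB 1 to 3, in CPM. All tumors lay below all SHH MB, with a log2 fold change of -1.61 (SE 0.34, adjusted p 0.0182 by edgeR, called in 15 of 19 alternatives). The list as a whole had a median of -0.067 against P7 cerebella, with 15 of 32 fitted higher, and 0.41 against SHH MB, with 26 of 32 fitted higher. The first was 0.081 without tumor 1. The second was 0.079 without tumor 3, where 3 of 30 were called higher, about the share of all genes called higher in that fit (9.57%). Its summed level was 174, 199, 215 and 217 CPM in tumors 1 to 4, 193, 195 and 218 in P7 cerebella and 177, 175 and 157 in SHH MB, so that tumors and P7 cerebella overlapped. Ly6e, a membrane protein, was its most abundant gene. The part of interferon signaling in the class I values was not tested.

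Ligands that NK cells or checkpoint receptors read gave no call. Of 10 such genes 8 were tested, and edgeR called 0 in both comparisons of the tumors, with 2 and 3 at an unadjusted p under 0.05 and 0 called by DESeq2 and by limma. Their medians were -0.46 against P7 cerebella and -0.21 against SHH MB, which turned to 0.073 without tumor 2. Cd47, the signal that restrains phagocytes, was the most abundant, with 285, 161, 57.2 and 72.9 CPM in the tumors, 160.4, 149 and 141 in P7 cerebella and 50.2, 56.9 and 63.3 in SHH MB. Raet1d, a ligand of an activating NK receptor, had 0 counts in 2 tumors and in 3 libraries in all.

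Markers of immune cells were measured because microglia, macrophages and lymphocytes carry class I and class II themselves. The 16 markers of microglia and macrophages summed to 289, 167, 93.3 and 249.7 in MYC/SMARCA4 tumors 1 to 4, 131, 133 and 134 in P7 cerebella 1 to 3 and 132, 129 and 89.6 in SHH MB 1 to 3, in CPM. Tumors 1, 2 and 4 were above all other libraries and tumor 3 was within their range. Tumor 3 was also the lowest tumor for H2-K1 and H2-D1. No marker was called against P7 cerebella or SHH MB by edgeR (0 of 16 in both, 6 and 3 at an unadjusted p under 0.05 beside 25.2% and 19.8% of all genes, 1 and 2 by DESeq2, 0 and 0 by limma). Without tumor 3, 6 and 5 of 16 were called higher, in fits that called 11.8% and 9.57% of all genes higher. The fitted value was above 0 for 13 and 16 of 16, with medians of 0.52 and 0.71 beside -0.051 and 0.0082 for all genes. Tyrobp was the most abundant per kilobase of exon, and no marker was at 0 in any library. The 8 markers of perivascular macrophages and monocytes summed to 75.9, 56.0, 36.8 and 96.0 CPM in the tumors, 46.4, 49.8 and 45.8 in P7 cerebella and 52.4, 40.3 and 45.2 in SHH MB. Their most abundant gene, the lysozyme Lyz2, had 15.9, 16.4, 6.72 and 48.3 in MYC/SMARCA4 tumors 1 to 4, 3.07, 4.15 and 1.28 in P7 cerebella 1 to 3 and 9.96, 7.78 and 6.68 in SHH MB 1 to 3, in CPM. It rose against P7 cerebella with a log2 fold change of 2.93 (SE 0.58, adjusted p 0.0200 by edgeR, called in 14 of 18 alternatives), and tumor 4 was highest, as it was for Cd74. The medians of this list were -0.14, which turned to 0.052 without tumor 2, and 0.19, and edgeR called 0 of 8 against SHH MB (1 at an unadjusted p under 0.05, 0 by DESeq2 and limma). Ly6c2 and Ms4a7 had 0 counts in 1 tumor each. The part of these cells in the levels of H2-K1, H2-D1, B2m and Cd74 was not tested.

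Markers of lymphocytes were low. The 10 T cell markers summed to 21.8, 6.84, 34.1 and 15.4 CPM in tumors 1 to 4, 25.3, 26.4 and 33.7 in P7 cerebella and 22.7, 28.6 and 17.8 in SHH MB, with Lck the most abundant. Trac, the constant segment of the T cell receptor, had 0 counts in all 10 libraries. Whether its reads could be counted was not tested, so these zeros set no bound on its expression. Cd3e had 0 in 1 tumor. The 8 NK cell markers summed to 4.71, 1.08, 16.1 and 7.20, 10.3, 13.3 and 12.7 and 13.2, 11.8 and 12.4 CPM. Prf1 was the most abundant, Klrk1, Nkg7, Gzma and Klrd1 had 0 counts in 2 tumors each, and Gzmb in 1. The 10 markers of B cells and dendritic cells summed to 205, 116, 96.1 and 67.8, 135, 113 and 115 and 64.7, 62.2 and 50.6 CPM, led by Zbtb46, and Batf3 had 0 counts in 1 tumor. EdgeR called 0 of the 9 T cell, 5 NK cell and 9 B and dendritic cell markers it tested in both comparisons of the tumors. At an unadjusted p under 0.05 there were 1, 0 and 0 against P7 cerebella and 0, 0 and 2 against SHH MB. DESeq2 called 1 B and dendritic cell marker against SHH MB and 0 of all others, and limma called 0. Median log2 fold changes were -0.61, -0.52 and -0.72 against P7 cerebella and -0.25, -0.61 and -0.42 against SHH MB. Without tumor 3 those against P7 cerebella were -1.41, -1.52 and -1.69. There 3 of 9, 1 of 4 and 3 of 9 were called lower. That fit called 34.6% of all genes in either direction, and 11.8% higher. Against SHH MB, the T cell median turned to 0.014 without tumor 2, and that of B and dendritic cells to 0.68 with at least 10 counts in every library (3 genes tested). The part of these cells in the class I values was not tested.

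Cells of vessels and connective tissue express class I strongly in many organs. The 12 endothelial markers summed to 598, 261, 147 and 202 CPM in tumors 1 to 4, 284, 264 and 255 in P7 cerebella and 299.8, 243 and 295 in SHH MB. Tumor 1, which had the most H2-D1, was highest here too, and tumors 3 and 4 were the lowest. Cldn5 was the most abundant per kilobase of exon. Kdr, a receptor of vascular growth factor, fell against SHH MB (log2 fold change -1.12, SE 0.24, adjusted p 0.0197 by edgeR, 11 of 19 alternatives), and edgeR called 0 of 12 against P7 cerebella, with 5 at an unadjusted p under 0.05, 3 called by DESeq2 and 0 by limma. The medians were 0.059 and -0.058. Without tumor 1 they were -0.48 and -0.62, and 5 of 12 were called lower in each comparison. Those fits called 16.1% and 9.77% of all genes in either direction, and 11.1% and 5.91% higher. The 8 markers of fibroblasts, meninges and pericytes summed to 449, 449, 158 and 449.6, 456, 449 and 415 and 497, 449.5 and 558 CPM, led by Rgs5. EdgeR called 0 of 8 in both comparisons (0 and 1 at an unadjusted p under 0.05, 0 by DESeq2 and by limma), with medians of -0.31 and -0.46. The first turned to 0.074 without P7 cerebellum 1. In each comparison, 1 of 8 was called lower without tumor 4. Those fits called 3.35% and 4.21% of all genes in either direction, and 1.80% and 2.10% higher. With at least 10 counts in every library, 1 of 8 was again called lower in each comparison. There 11.7% and 10.8% of all genes were called in either direction, and 5.10% and 4.77% higher. No marker of either list was at 0 in a library. Their part in the class I values was not tested.

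Other cells of the cerebellum differed between groups and between tumors. Of 6 choroid plexus markers, Ttr and Aqp1 fell in both comparisons of the tumors, and Ttr, the most abundant, by log2 fold changes of -8.91 and -8.94 (adjusted p 0.000273 and 0.0000762 by edgeR, called in 18 of 18 alternatives), while the calls of Aqp1 were made in 13 and 9 of 18. The list summed to 74.1, 46.6, 40.2 and 50.1 in MYC/SMARCA4 tumors 1 to 4, 579, 1171 and 678 in P7 cerebella 1 to 3 and 931, 1294 and 283 in SHH MB 1 to 3, in CPM, with medians of -1.52 and -1.62. Of 8 markers of astrocytes and Bergmann glia, 4 fell against P7 cerebella (Aqp4 in 9, Aldh1l1 in 19, Gdf10 in 10 and Sox9 in 9 of 19 alternatives) and 2 against SHH MB (Aldh1l1 in 14 and Sox9 in 19 of 19). Against P7 cerebella, only 1 was called lower with tumor 4 or any single P7 cerebellum or SHH MB left out, with replicate numbers as a block or in a fit of the compared groups alone. The list had medians of -1.66 and -0.87, sums of 494, 2581, 500.2 and 1925 CPM in the tumors, 2226, 2226 and 2170.4 in P7 cerebella and 1883, 2078 and 2226 in SHH MB, and Slc1a2 as the most abundant. The 8 markers of myelinating oligodendrocytes, led by Mbp, summed to 4004, 813, 112 and 441 CPM, 955, 1133 and 1084 and 397, 376 and 127. EdgeR called 0 of them (0 against P7 cerebella and 4 against SHH MB at an unadjusted p under 0.05, 0 and 2 by DESeq2, 0 by limma), with medians of 0.19 and 1.72. Without tumor 1 the medians were -0.77 and 0.35, and 2 were called lower against P7 cerebella. That fit called 16.1% of all genes in either direction, and 11.1% higher. The median against P7 cerebella was -0.39 with limma and -0.25 with replicate numbers as a block. Without tumor 3, 5 were called higher against SHH MB, in a fit that called 9.57% of all genes higher. Tumor 1 was the library with the most myelin transcripts and also the one with the most H2-D1. The part of these cells in the class I values was not tested.

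Markers of neurons checked the labelled tissues. Of 6 markers of the granule cell lineage, led by Zic1, Barhl1 fell against P7 cerebella (-3.16, adjusted p 0.000230 by edgeR) and SHH MB (-4.78, adjusted p 0.00000631), and rose in SHH MB against P7 cerebella (1.62, adjusted p 0.0394). The list summed to 1894, 1539, 781 and 600.1 CPM in tumors 1 to 4, 1859, 1928 and 1708 in P7 cerebella and 1754, 1858 and 2104 in SHH MB, with medians of -0.65 and -0.94. Atoh1, the gene whose promoter drives the Cre, was at or under 3 counts in 1 tumor. Of 6 markers of mature granule neurons, led by Cbln1 per kilobase of exon, 3 rose against P7 cerebella (Gabra6 in 11, Cbln3 in 13 and Grin2c in 14 of 19 alternatives). Against SHH MB 4 rose (Gabra6 in 19, Cbln3 in 18, Grin2c in 14 and Calb2 in 9 of 19). The medians of the list were 2.38 and 3.37. Against P7 cerebella, 0 were called with any single P7 cerebellum left out, with replicate numbers as a block or in a fit of the compared groups alone, and without tumor 1 the median was 1.41. Their sum was 4023, 1424, 229.6 and 798 in MYC/SMARCA4 tumors 1 to 4, 883, 915 and 824 in P7 cerebella 1 to 3 and 683, 585 and 685 in SHH MB 1 to 3, in CPM, and tumor 1 was far above the rest. Of 6 hedgehog target genes, led by Ptch1, Sfrp1 and Mycn fell against P7 cerebella, and Ptch1, Hhip (called in 11 of 19 alternatives), Sfrp1 and Mycn fell against SHH MB, with medians of -0.50 and -3.08. The sums were 209, 359.8, 213 and 704 CPM in the tumors, 565, 509 and 559.6 in P7 cerebella and 2251, 2367 and 2654 in SHH MB, highest in the SHH MB as their label says. Tumor 1 had both the largest sum of mature granule markers and the largest sum of the 10 class I genes, and tumor 3 had the smallest of both among the tumors. The part of neighboring tissue in the class I values was not tested.

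**Figure D5:**
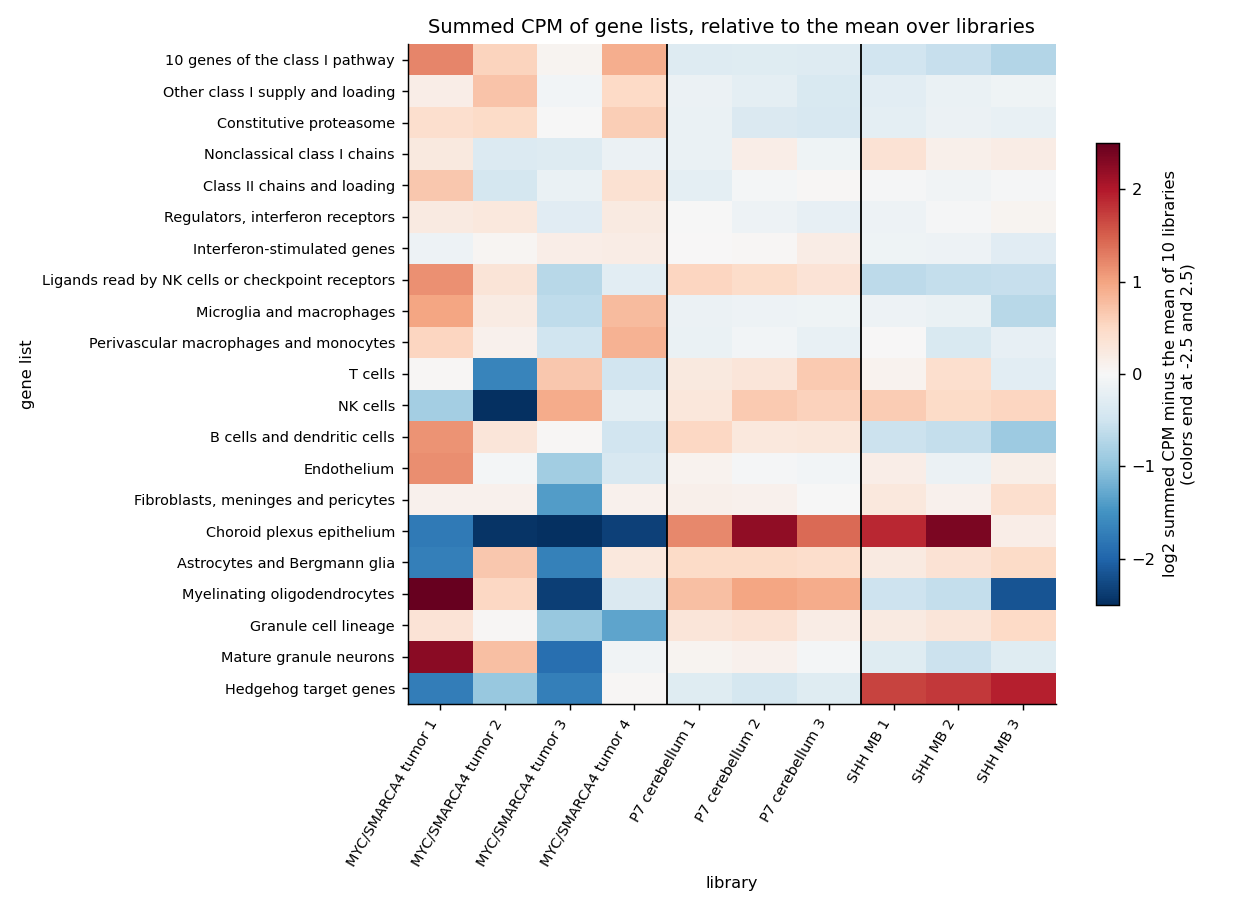
Log2 summed CPM of each of 21 gene lists in each library, minus the mean of the 10 libraries, as colors that end at ±2.5. The microglia sums were 289, 167, 93.3 and 249.7 CPM in MYC/SMARCA4 tumors 1 to 4.

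Signs of RNA quality differed between groups as well. The share of mitochondrial genes was 6.36, 2.94, 2.89 and 2.29% in tumors 1 to 4, 1.43, 1.59 and 1.59% in P7 cerebella and 1.31, 1.52 and 1.25% in SHH MB. Genes that resemble ribosomal RNA took 2.26, 2.114, 2.71 and 3.68%, 0.611, 0.603 and 0.667% and 1.51, 1.34 and 1.06%. At least 1 count was found on 36933, 34735, 44158 and 42327 genes in the tumors, and on 42563 to 45490 genes in the other libraries. The 1788 olfactory and vomeronasal receptor genes, which brain tissue should hardly express and which were picked with their values known, summed to 491, 140.0, 1326 and 444 CPM in the tumors, 1186, 1304 and 1454 in P7 cerebella and 1077, 893 and 785 in SHH MB. Tumor 3 resembled the P7 cerebella and SHH MB in this sum, and tumors 1, 2 and 4 were lower. The part of this background in the levels of low genes such as Psmb9 and Nlrc5 was not tested.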

How the data were processed

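RNA of 10 FFPE samples was sequenced after ribosomal RNA depletion (RiboCop) with the CORALL total RNA kit. According to the submitters' processing notes, reads were checked with FastQC 0.73, trimmed with Trimmomatic 0.38.1, aligned to GRCm39 with STAR 2.7.8a and counted with featureCounts 2.0.1. The counts per gene were deposited by the authors without normalization and were used here. The authors also deposited log2 values, a variance-stabilizing transformation (VST) from DESeq2 2.11.40.7, used here in an alternative.

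Groups follow the labels, and no column was left over. EdgeR 4.0.16 (R 4.3.3) fitted all 10 libraries by quasi-likelihood with a mean per group, TMM factors and filterByExpr, and p-values were adjusted by Benjamini-Hochberg over 29952 genes. Log2 CPM uses a prior count of 2. Permutation tests were exact and two-sided. Adjusted p-values weigh a difference between group means against the spread between samples. The 10 genes and 20 other lists were chosen with earlier results of these data known. Named genes are the 10, markers at or under the floor, and the genes nearest in pattern. Each list also gives its most abundant gene per kilobase of exon and up to 5 called genes without overlap of the groups. Some called genes of these lists are not reported here. Of 240 genes in the lists, 239 had a position in GENCODE. The tests were tried on simulated data.

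Alternatives changed the tool (DESeq2 1.42.0, or limma 3.58.1 on the VST values), the scaling (RLE factors, or library sizes that leave out mitochondrial and ribosomal genes), the filter (none, or 10 counts or more throughout), the model (a robust estimate, a block for replicate numbers, or a fit of the compared groups alone), the call (thresholds of the study) and the prior count (0.5), and each library was left out in turn.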

Additional observations from a re-analysis of the deposited data

Results flagged for a closer look

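In the 4 MYC/SMARCA4 tumors, 30 values (the log2 CPM of the 10 genes and the log2 summed CPM of the 20 other lists) were tested for a tumor far from the rest, as the gap to its nearest neighbor divided by the range, and 2 passed Dixon's critical value at the 95% level. Chance alone brings about 1 in 20 groups past it. The transcription factors and interferon signaling genes had a ratio of 0.913, with tumor 3 at 737 CPM and the other tumors between 1041 and 1076. The markers of fibroblasts, meninges and pericytes had a ratio of 0.998, with tumor 3 at 158 CPM and the other tumors near 449. None of the 10 class I genes passed it by itself. Groups of 3 libraries were not tested.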

How the results depend on the processing

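Against P7 cerebella, 3 of the 10 genes were called, and 1 (H2-K1) with limma on the VST values, with at least 10 counts in every library (7 genes tested), in a fit of only the 2 groups compared, and with the thresholds of the study. DESeq2 called 4. With 1 library left out, from 0 to 4 were called. There were 0 without P7 cerebellum 2 or 3 (0.469% and 0.628% of all genes called), 1 without tumor 2, tumor 4, P7 cerebellum 1, SHH MB 2 or SHH MB 3 (0.697% to 3.36%), and 4 without tumor 3 (34.6%). Against SHH MB, 3 were called, 5 with DESeq2, 1 with only the 2 groups compared and 1 with the thresholds of the study, and from 0 (without SHH MB 3, 0.955% of all genes called) through 1 (without SHH MB 2, 1.09%) to 5 (without tumor 3, 23.4%) with a library left out. Between SHH MB and P7 cerebella 0 were called, and 1 (H2-D1) with only these 2 groups. The cause of these differences was not tested, other than that fewer samples or genes entered some fits.

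The replicate number as a block gave 1 called gene (H2-K1) in each comparison of the tumors and 0 between SHH MB and P7 cerebella, and it turned Psmb9 to 0.13 and Tap1 to -0.053 against P7 cerebella and Nlrc5 to 0.0015 between SHH MB and P7 cerebella. Same-numbered libraries did not deviate together, with correlations over genes from 0.0012 to 0.16 (tumors and P7 cerebella), -0.27 to -0.047 (tumors and SHH MB) and -0.093 to 0.035 (SHH MB and P7 cerebella), and 2, 0 and 1 of 3 libraries correlated best with their own number.

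Of 561 fold changes of the 10 genes in 19 fits, 487 kept their direction and side of the threshold, 41 were no longer called, 8 became called, and 25, none of them called, changed sign. Against P7 cerebella, Psmb9 (-0.00057) was 0.028 with DESeq2, 0.028 with RLE factors, 0.0091 with library sizes without mitochondrial and ribosomal genes, 0.13 with limma and 0.032 without a filter, and Tap1 (0.074) was -0.11 with at least 10 counts and -0.000072 with only the 2 groups. With a library left out, log2 fold changes against P7 cerebella ranged from -0.50 to 0.34 for Psmb9, -0.41 to 0.30 for Tap1, -0.024 to 0.58 for Tap2 (negative without tumor 1) and -0.78 to 0.0054 for Nlrc5 (positive without tumor 2). The range was -0.72 to 0.056 for Nlrc5 against SHH MB, and -0.16 to 0.20 for Nlrc5 and -0.24 to 0.56 for Psmb9 between SHH MB and P7 cerebella. Against P7 cerebella, Psmb9 was positive without P7 cerebellum 1 and lowest without P7 cerebellum 3, and the cause was not tested. A prior count of 0.5 moved all 30 mean levels by less than their SD.

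All genes called numbered 1873, 1403 and 67 in the 3 comparisons, and 4623, 3149 and 574 with DESeq2, 1120 and 875 in the first and second with limma, 229, 388 and 6883 with only the 2 groups, 370, 631 and 19 with the block, 133 in the last with at least 10 counts, 87 and 180 with the thresholds of the study, and 150 to 9932, 311 to 6729 and 0 to 946 with a library left out. Higher calls made up 63.7% and 51.8% in the comparisons of the tumors, but 49.4% and 36.5% with limma, 43.6% with at least 10 counts against P7 cerebella, 25.3% and 22.7% with only the 2 groups, 44.6% and 36.6% with the block, and with a library left out 19.7% (without P7 cerebellum 3) to 69.0% (without tumor 1) and 15.2% (without SHH MB 1) to 60.5% (without tumor 1). The median of all genes moved by -0.18 and -0.16 with limma, -0.20 and -0.12 without a filter, and 0.12 against P7 cerebella with at least 10 counts. Without tumor 3 it moved by -0.13 against P7 cerebella and -0.19 against SHH MB. At this depth Psmb9, with 2 to 23 counts, could show large changes only.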
